A study of Rattus norvegicus with 6 samples.

Results

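miR-126 is a microRNA (miRNA) of endothelial cells, which line blood vessels, and the rat table held 3 of its entries. They were rno-miR-126a-3p, rno-miR-126a-5p and rno-miR-126b, taken by name from the 764 miRNA entries measured. All 3 were among the 570 entries with a value above 0 in some library. The miRNAs were sequenced from tissue labelled testicle of male Sprague Dawley rats, with testis cell as the labelled cell type. One group of 3 libraries came from rats with a knockout of HO-1 and the other group of 3 from wild type rats. HO-1, heme oxygenase 1, is an enzyme that cells induce under stress to break down heme. In both groups the left testicle had been twisted by 720° for 2 h and then returned to its natural position for 3 days, so every library followed the same ischemia and reperfusion, and no uninjured library was analysed here. The labels give no age, do not describe the knockout allele, and leave it unsaid whether the libraries are from separate animals. p-values therefore measure only the spread between these libraries, which may be technical.

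The hairpin of miR-126 lies in an intron of Egfl7, a gene of endothelial cells, and both of its arms are cut out as mature miRNAs. miR-126-3p is known in endothelium for repressing Spred1 and Pik3r2, which restrain signalling of the growth factor VEGF, and for lowering the adhesion molecule VCAM1. miR-126-5p is known for repressing Dlk1, a Notch ligand, in endothelial cells that renew the vessel wall. Platelets and blood progenitor cells carry miR-126 too, so it marks endothelium without being exclusive to it.

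The 3 mature sequences are shown because they define which strand and which seed each value belongs to. They were matched by name in a RefSeq table on the build GRCr8, and capitals mark the seed, bases 2 to 8 from the 5′ end, through which a miRNA pairs with its targets.
rno-miR-126a-3p: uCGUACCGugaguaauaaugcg
rno-miR-126a-5p: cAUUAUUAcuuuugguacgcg
rno-miR-126b: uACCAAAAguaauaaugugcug
The 3 seeds differed from each other. Among 693 distinct mature names in that table, 0 others shared any of them, and 517 of the 570 tested miRNAs had a sequence there.

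On GRCr8, miR-126a-5p lies at chr3:29813182-29813202 and miR-126a-3p at chr3:29813219-29813240, both on the plus strand, the strand of Egfl7, and inside its annotated span. miR-126b lies at chr3:29813177-29813198 on the minus strand. These positions are RefSeq's and come from another build than rn6, the one named in the submitters' processing notes. RefSeq uses the gene symbols the other way round, Mir126b for the hairpin of the miR-126a arms and Mir126a for the hairpin of miR-126b. The arms of miR-126a are separated by 16 bases of hairpin. miR-126b is the reverse complement of miR-126a-5p over 17 bases, shown here in capitals, so reads of these 2 miRNAs differ in strand and not in locus.
rno-miR-126a-5p: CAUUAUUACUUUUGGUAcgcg
rno-miR-126b: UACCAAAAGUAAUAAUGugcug

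**Figure D1:**
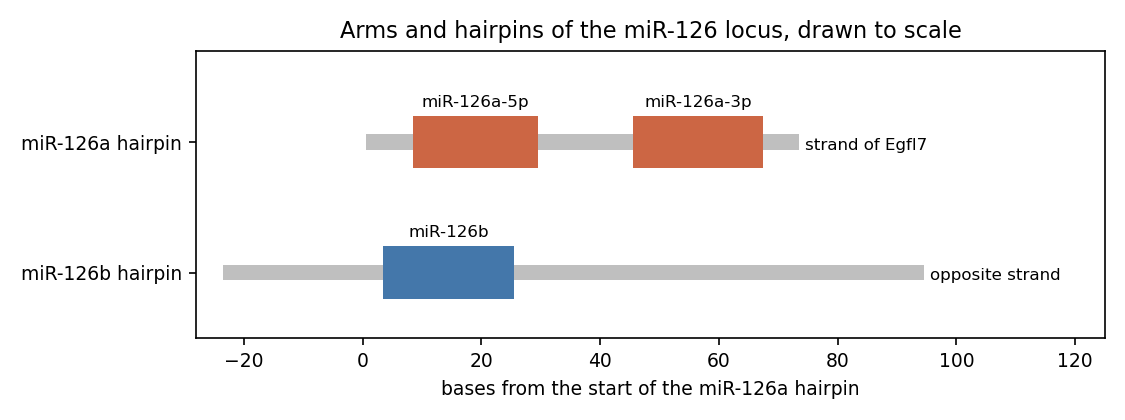
Map of the miR-126 locus to scale, with the horizontal axis in bases from the start of the 73-base miR-126a hairpin. Grey bars are hairpins and coloured bars are mature miRNAs. miR-126b (bases 4 to 25) sits opposite miR-126a-5p (bases 9 to 29), and none of the miRNAs drawn lies opposite miR-126a-3p (bases 46 to 67).

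Libraries held between 8300536 and 10042673 assigned reads, as recovered from the steps of the deposited values, which are reads per 1000000 assigned reads (RPM). The hepatocyte miRNA miR-122-5p took 32.7% to 36.6% of the reads in wild type libraries and 40.2% to 46.4% in knockout libraries. The 13 listed testis miRNAs, of which 3 were at 0 in every library, together stayed between 27.9 and 53.7 RPM. These values go against the labelled tissue, and which tissue the values of miR-126 describe is not settled by this assay. The mRNA of HO-1 and endothelial genes such as Egfl7 were not measured, so neither the knockout label nor the endothelial origin of miR-126 could be checked beyond the miRNAs themselves.

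Both arms of miR-126a were plentiful and lower in the HO-1 knockout, and the rarer 5p arm was lower by more. Of all 570 miRNAs tested, 6.32% passed the test used here (limma, Benjamini-Hochberg adjusted p below 0.05), 5.61% lower and 0.702% higher in the knockout. Of the 218 miRNAs with a mean of 10 RPM or more, to which both arms belong, 11.9% were called lower and 1.38% higher. Over all 570 the calls were 32 lower and 4 higher, and with TMM, a scaling that sets the bulk of miRNAs level, 29 lower and 20 higher. miR-126a-3p, the major arm, reached 25620, 25908 and 24371 RPM in the wild type libraries, numbered 1 to 3, against 18652, 20653 and 18601 RPM in the knockout libraries. Every knockout library was below every wild type library, as for 21.6% of the miRNAs tested. In rank it was the eighth or ninth most abundant of all entries in each of the 6 libraries, so its place in the order hardly moved while its level did. The group means were 25300 ± 817 and 19302 ± 1170 RPM (SD, n = 3), a level 23.7% lower in the knockout. On the scale of log2(RPM + 1) it fell by 0.39 (SE 0.08, limma over 570 miRNAs, Benjamini-Hochberg adjusted p = 0.030).

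miR-126a-5p reached 1024, 1074 and 851 RPM across the wild type libraries, against 538, 635 and 547 RPM across the knockout libraries. Again no knockout library reached the lowest wild type library, which was library 3. It ranked between 46 and 49 in the wild type and between 51 and 58 in the knockout. The means were 983 ± 117 and 573 ± 53 RPM (SD, n = 3), 41.7% lower in the knockout. The fall was 0.77 on the log2 scale (SE 0.13, limma adjusted p = 0.016), with a 95% interval of the change from -1.07 to -0.48.

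miR-126b, on the opposite strand, was close to absent. It had 1 read in wild type library 2, or 0.11 RPM, and 0 reads in the other 5 libraries, out of 55749702 reads in all. In a library with 0 reads, a limit of 3 reads allows up to 0.299 to 0.361 RPM, and this limit covers counting error only. Whether PCR copies were removed is not known from the submitters' processing notes. The miR-126a arms together had 1293181 reads in the same libraries. At this depth a difference in miR-126b between genotypes was not detectable (limma adjusted p = 0.71), and no fold is given.

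**Figure D2:**
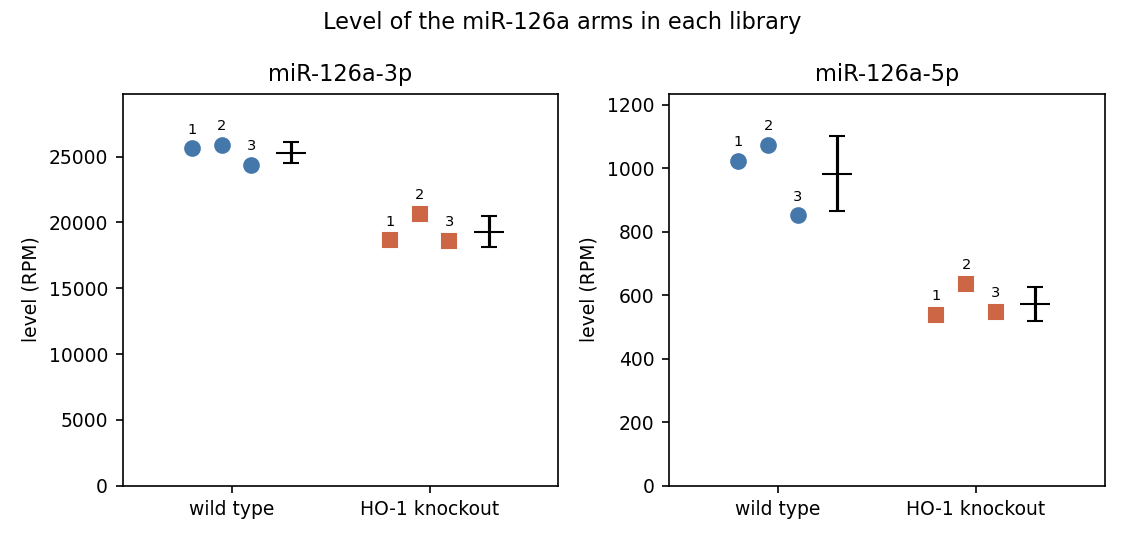
Level of each miR-126a arm in RPM on a linear axis starting at 0, with 1 numbered point per library (circles wild type, squares HO-1 knockout) and the mean ± SD of 3 libraries in black. In both panels the knockout points lie below the wild type points without overlap, and the relative gap is wider for miR-126a-5p.

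Both arms passed without rescaling. RPM are relative to the total of a library, and miR-122-5p took a larger part of that total in the knockout. Among the 218 more abundant miRNAs, the median log2 change was -0.29, so the -0.39 of miR-126a-3p stood close to the middle of the table, with 77 of the 218 lower still. The -0.77 of miR-126a-5p stood further out, with 25 of the 218 lower. TMM scaling moved that median by 0.21, to -0.07.

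That scaling moved both arms alike, but the calls differed. With TMM, miR-126a-5p had a log2 change of -0.55 and kept its call (limma adjusted p = 0.021). For miR-126a-3p the change was -0.17, short of the threshold (limma adjusted p = 0.53). Leaving miR-122-5p out of the total gave -0.58 for miR-126a-5p (limma adjusted p = 0.019) and -0.19 for miR-126a-3p, again short of it (limma adjusted p = 0.19). Single libraries mattered for both arms. Omitting any of them except knockout library 2 ended the call of miR-126a-3p (limma adjusted p = 0.054 to 0.16). For miR-126a-5p, omitting wild type library 2, knockout library 1 or knockout library 3 did so (limma adjusted p = 0.058 to 0.085). The authors' deposited table gives a log2 fold change of -0.39 with a p-value of 0.23 for miR-126a-3p. For miR-126a-5p the authors' deposited table gives -0.78 with a p-value of 0.000269.

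**Figure D3:**
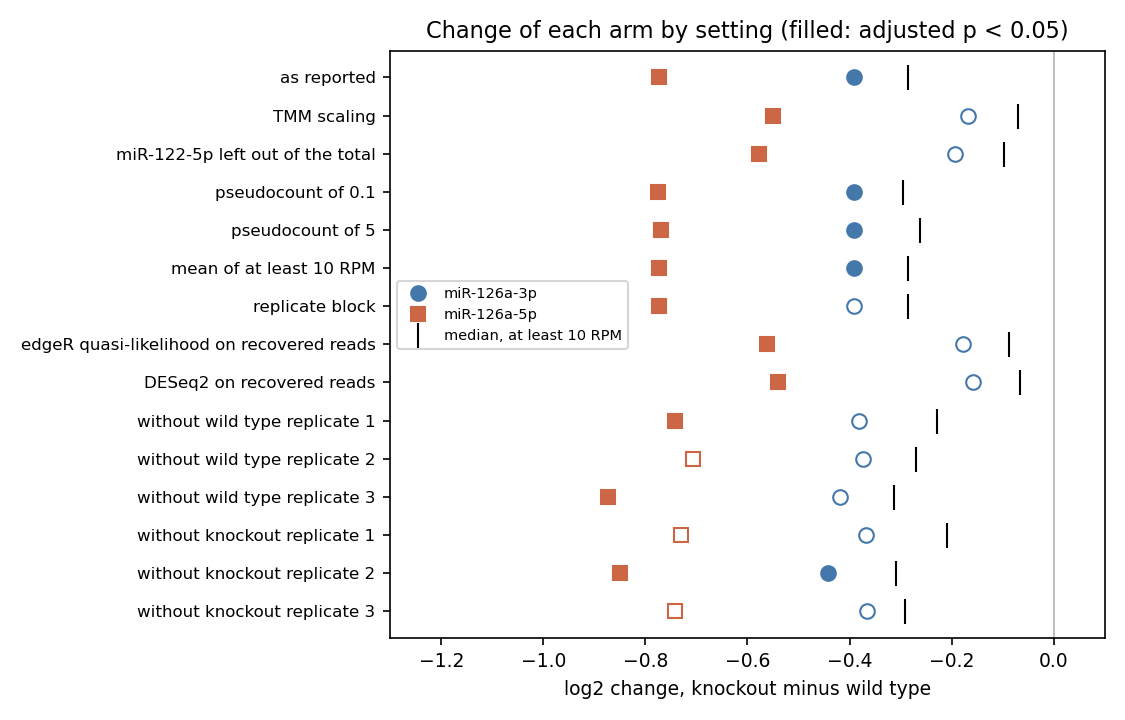
Log2 change (knockout minus wild type) of miR-126a-3p (circles) and miR-126a-5p (squares) under each setting, filled where the adjusted p was below 0.05, with vertical ticks for the median of miRNAs of at least 10 RPM. miR-126a-5p stays left of miR-126a-3p in every setting drawn, and the TMM, miR-122-5p, edgeR and DESeq2 settings move both arms and the median to the right together.

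The ratio of the arms within a library does not depend on how that library is scaled. The 3p arm outnumbered the 5p arm by 25.0, 24.1 and 28.6 to 1 in the wild type libraries, and by 34.7, 32.5 and 34.0 to 1 in the knockout libraries. All 3 knockout ratios were higher than any wild type ratio, and wild type library 3 lay nearest to them. How many other miRNAs had arm ratios that separated the groups in this way was not counted. The means were 25.9 ± 2.4 and 33.7 ± 1.1 (SD, n = 3). As a share of the reads of both arms, miR-126a-5p made up 3.73% ± 0.32 in wild type libraries, against 2.88% ± 0.09 in knockout libraries (SD, n = 3). The closest pair of libraries was wild type 3 at 3.37% (95% Wilson interval 3.30% to 3.45%) and knockout 2 at 2.98% (2.91% to 3.06%). Counting error, with reads taken as independent, was small beside the gap between this pair. The intervals leave out the spread between libraries, and the wild type libraries alone ranged from 3.37% to 3.98%.

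The log2 ratio was 0.38 higher in the knockout, or 1.30-fold. The exact permutation test, two-sided, gave p = 0.1, its lower limit for 3 against 3 libraries. In a limma fit over the 49 miRNAs whose 2 arms each averaged at least 10 RPM, the change of the miR-126a ratio passed (log2 change 0.38, SE 0.14, limma adjusted p = 0.021, 95% interval 0.11 to 0.66). That fit gave all pairs of a given level 1 shared spread. The spread of the miR-126a ratio itself was smaller, with an SE of 0.08 from its own 6 libraries. The unequal fall of the arms was known when miR-126a was chosen, so this test is no independent evidence of it. Omitting wild type library 1, wild type library 2, knockout library 1 or knockout library 3 ended the call (limma adjusted p = 0.056 to 0.14), while the log2 change stayed between 0.33 and 0.46 with any single library left out.

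Other arm pairs shifted too. Of the 49 pairs, 18 passed, or 36.7%, with 20.4% towards the 3p arm and 16.3% towards the 5p arm. Without wild type library 1 only 5 of the 49 passed. These calls and their order use the shared spread, not the spread of each pair itself. Pairs with the smallest adjusted p towards the 3p arm were those of miR-674, miR-145 and miR-30b, with log2 changes of 1.28, 1.03 and 0.73. The ratio of miR-674 varied widely in the knockout, at 6.07 ± 2.05 against 2.38 ± 0.22 in the wild type (SD, n = 3). Towards the 5p arm they were those of miR-140, miR-148b and miR-425, with log2 changes of -0.65, -0.80 and -0.63. The ratio of the abundant to the rare arm rose, as in miR-126a, in 24 of the 49 pairs, whichever way the single arms moved, with a median change of -0.01 in the log2 ratio of abundant over rare arm. By absolute size the change of miR-126a came in place 20 of 49.

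**Figure D4:**
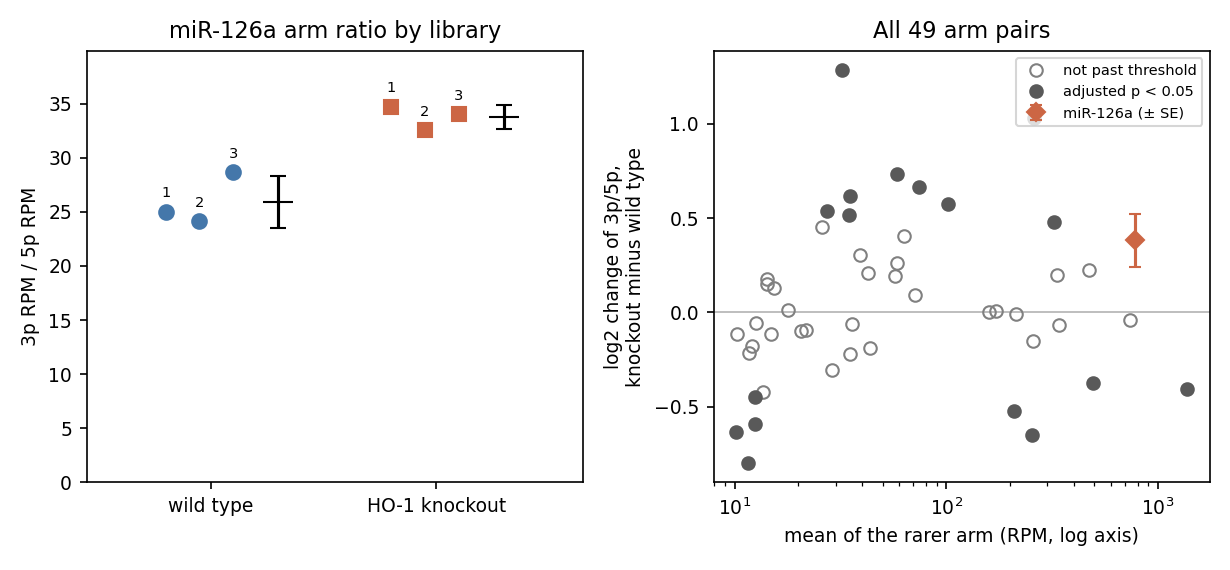
Left, the ratio of miR-126a-3p to miR-126a-5p in each library on an axis from 0, with mean ± SD of 3 libraries: knockout ratios of 32.5 to 34.7 lie above wild type ratios of 24.1 to 28.6. Right, the change in log2 3p/5p ratio (knockout minus wild type) of 49 arm pairs against the mean RPM of the rarer arm on a log axis, filled where the adjusted p was below 0.05; miR-126a (diamond, ± SE) lies among other filled points of both signs.

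Within each library the summed miR-126a arms were also set against miRNAs of other cells, which removes the scaling in the same way. Against the mural list (both arms of miR-143 and of miR-145, of smooth muscle and pericytes around vessels) the ratio was 1.83, 2.06 and 2.56 in the wild type libraries, against 3.04, 2.73 and 3.26 in the knockout libraries. Every knockout ratio was higher, so the mural sum was lower by more than miR-126a. That sum ranged from 9840 to 14599 RPM across wild type libraries and from 5865 to 7801 RPM across knockout libraries, and 3 of its 4 members fell, beside the 11.9% of miRNAs of their abundance. Among them miR-143-3p, the most abundant, fell by 0.93 on the log2 scale (limma adjusted p = 0.025), while miR-145-3p did not pass, with a log2 change of 0.08 (limma adjusted p = 0.71). The marker lists were chosen with earlier results of these data known, so counts of their members are no independent evidence.

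Against the leukocyte list (both arms of miR-142, miR-223-3p and miR-150-5p) the miR-126a ratio was 30.6, 32.3 and 33.3 in wild type libraries, against 22.5, 23.1 and 23.6 in knockout libraries. Here the knockout was lower in all 3 libraries, and 0 of the 4 leukocyte members passed in limma's test over all miRNAs, beside the 11.9% called lower and 1.38% called higher at this abundance. The members did not share a direction. miR-142-3p, 1 of the 2 arms of miR-142 that made up most of the sum, had a log2 change of 0.42 (limma adjusted p = 0.062). The log2 changes of miR-223-3p and miR-150-5p were -0.43 and -0.30 (limma adjusted p = 0.27 and 0.29), and that of miR-142-5p was -0.06 (limma adjusted p = 0.81). Their summed level was 757 to 871 RPM across wild type libraries and 811 to 923 RPM across knockout libraries. Against the red blood cell list (miR-451-5p, both arms of miR-144, and miR-486) the ratios overlapped, at 46.5 to 57.0 for wild type libraries and 44.8 to 50.9 for knockout libraries. The red blood cell sum was 467 to 580 RPM for the former and 377 to 459 RPM for the latter, and 0 of its 4 members passed, beside the same background.

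Against the hepatocyte list (both arms of miR-122) the ratio averaged 0.0747 ± 0.0062 in wild type libraries and 0.0459 ± 0.0060 in knockout libraries (SD, n = 3), without overlap. Nearly all of that sum was miR-122-5p, with a mean of 392974 RPM over all libraries against 1373 RPM for miR-122-3p. Their log2 changes differed in sign, at 0.30 for miR-122-5p and -0.10 for miR-122-3p (limma adjusted p = 0.095 and 0.61). On the log2 scale the 4 ratios to other cells changed by 0.50 (mural), -0.47 (leukocyte), -0.14 (red blood cell) and -0.71 (hepatocyte). By exact permutation, two-sided, p was 0.1, the lower limit, for the mural, leukocyte and hepatocyte ratios and 0.2 for the red blood cell ratio. Adjusted over the 5 ratios tested, the arm ratio included, the Benjamini-Hochberg values of these exact tests were 0.125 and 0.2, so none passed. The direction of the miR-126a ratio thus differed with the markers it was set against. In bulk tissue, fewer endothelial cells and less miR-126 per cell cannot be told apart, and the part of the other cell types in the fall of miR-126a was not tested.

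Other miRNAs with known roles in endothelium and vessel growth were described from a list of 26, all of them tested. Of these, 5 fell, 0 rose and 21 did not pass. All 5 were among the 23 members of at least 10 RPM, an abundance at which 11.9% of all miRNAs fell and 1.38% rose. The list's median log2 change was -0.45, and 23 of its 26 members had a negative change, against 164 of the 218 miRNAs of at least 10 RPM. With TMM scaling the median was -0.23. The summed level of the list showed no such difference, at 100350 ± 4444 RPM in wild type libraries and 100087 ± 4542 RPM in knockout libraries (SD, n = 3), and miR-21-5p made up most of it.

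miR-221-3p, which restrains endothelial migration through the receptor KIT, fell by 2.16 on the log2 scale (SE 0.23, limma adjusted p = 0.0033). The series title names this miRNA, so its fall is not independent evidence for the list. The list itself was chosen with earlier results of these data known, so its counts and median are no independent evidence either. The list holds 6 miRNAs of the miR-17-92 cluster, which acts in vessel growth, and 3 of them fell. miR-20a-5p fell by 1.00 (SE 0.14, limma adjusted p = 0.015), miR-17-5p by 0.67 (SE 0.14, limma adjusted p = 0.031) and miR-92a-3p, an inhibitor of vessel growth, by 0.66 (SE 0.13, limma adjusted p = 0.025). The other 3 did not pass, miR-19b-3p with a log2 change of -0.34, miR-18a-5p with 0.04 and miR-19a-3p with 0.22 (limma adjusted p = 0.34, 0.94 and 0.57).

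miR-322-5p, the rodent form of miR-424, which is induced by hypoxia in endothelium, fell from 45.0 ± 4.7 to 24.2 ± 2.9 RPM (SD, n = 3; limma adjusted p = 0.025). The members that did not pass with the highest mean over all 6 libraries were miR-21-5p, which rises in many kinds of tissue injury, with 70161 ± 2243 and 77665 ± 2604 RPM, and miR-10a-5p, which restrains inflammatory signalling in endothelium, at 5961 ± 643 and 5140 ± 669 RPM (SD, n = 3). miR-27b-3p, named here with its values already known, was close behind, at 6922 ± 1416 and 4081 ± 874 RPM (SD, n = 3; log2 change -0.76, limma adjusted p = 0.056). With any single library left out, between 2 and 4 members of the list fell. The lowest count, 2, came when wild type library 1, knockout library 1 or knockout library 3 was omitted, and omitting wild type library 2 left 3. miR-221-3p and miR-20a-5p passed in all 6 of these fits, while miR-92a-3p was lost in 4, miR-322-5p in 5 and miR-17-5p in 6 of them (limma adjusted p up to 0.13).

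**Figure D5:**
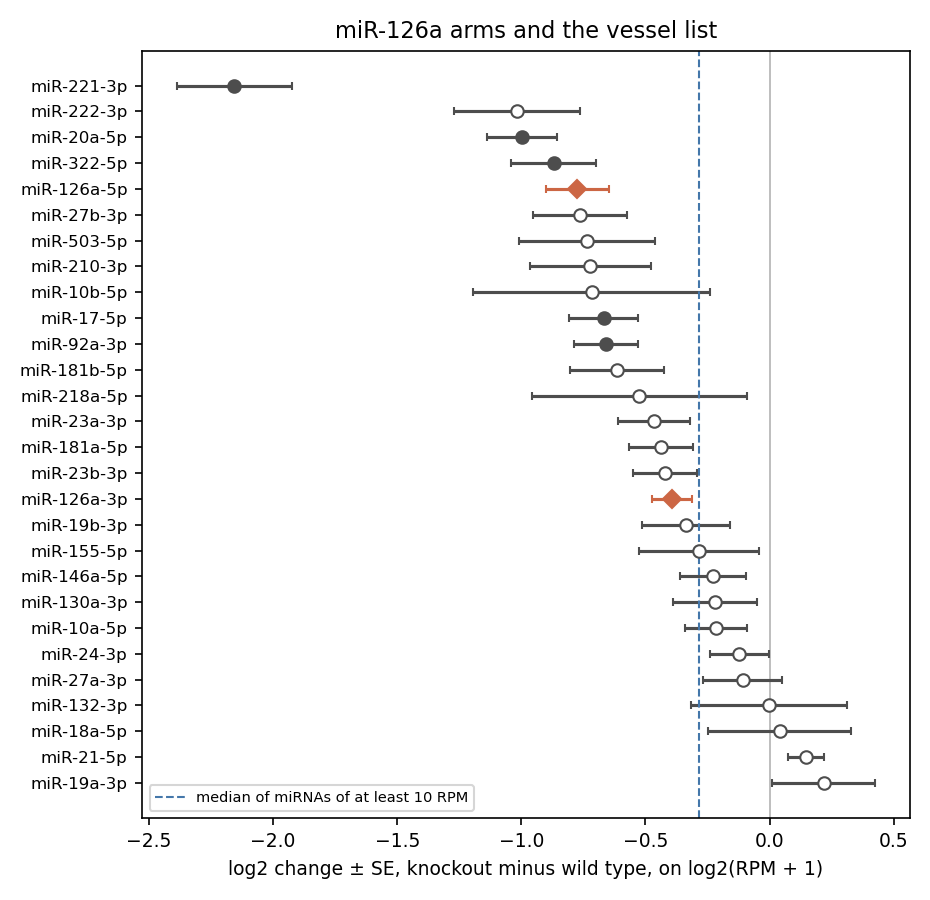
Log2 change ± SE (knockout minus wild type, on log2(RPM + 1)) of the 26 vessel-list miRNAs (circles) and the miR-126a arms (diamonds), filled where the limma adjusted p was below 0.05, with the dashed line at the median of miRNAs of at least 10 RPM (-0.29). miR-126a-5p lies among the lower members of the list, and miR-126a-3p lies nearer to the dashed line.

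For each arm, the miRNAs whose course over the 6 libraries was most alike were listed. Likeness was measured as the root mean square difference between log2(RPM + 1) profiles, each centred on its own mean, against the 217 other miRNAs of at least 10 RPM. The profile nearest to miR-126a-3p was that of miR-101b-3p, with a difference of 0.06, then those of miR-30c-2-3p, miR-532-5p, miR-193a-5p and let-7e-5p, with differences up to 0.08. None of these 5 passed the test between genotypes over all miRNAs (limma adjusted p = 0.064 to 0.26). In the fit of miRNAs of at least 10 RPM only, miR-30c-2-3p and miR-101b-3p passed (limma adjusted p = 0.037 and 0.0497). There miR-532-5p, miR-193a-5p and let-7e-5p did not. miR-126a-5p came in place 94 of 217, with a difference of 0.21, which restates the unequal fall of the arms.

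The profile nearest to miR-126a-5p was that of miR-322-5p, with a difference of 0.07. It was followed by those of miR-203a-3p, miR-92a-3p, miR-100-5p and miR-542-3p, with differences up to 0.12. All 5 fell in the knockout (limma adjusted p = 0.015 to 0.047), as nearness to a called profile makes likely. miR-542-3p no longer passed with TMM (limma adjusted p = 0.076), with miR-122-5p left out of the total (0.074) or with a pseudocount of 5 (0.052). With 1 library left out, miR-100-5p was lost in 1 of 6 fits, miR-203a-3p and miR-92a-3p in 4, miR-322-5p in 5 and miR-542-3p in 6.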

How the data were processed

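Libraries of small RNA, each from 1 μg of total RNA, were read as single ends of 50 bp, per the labels' protocols. The authors deposited 1 table of RPM, which sums to 1000000 in each library, with their mean RPM, log2 fold change and p-value, per the file headers. The submitters' processing notes list FastQC, BWA, edgeR and rn6 without role or version. For trimming, miRNA annotation and reads with several matches, the settings were not given in the sources used here. Each of the 6 columns matched 1 sample by name, with 0 unmatched.

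Since the table holds RPM and not counts, levels were tested with limma 3.58.1 on log2(RPM + 1), with the variance trended on level and genotype as factor, over the 570 miRNAs above 0 in some library. p-values were adjusted by Benjamini-Hochberg with a threshold of 0.05. Arm ratios were fitted likewise over 49 pairs, and within-library ratios were compared by exact permutation (scipy 1.17.1). Reads were recovered from the RPM steps: 97.8% to 98.9% of values above 0 lay within 0.0051 RPM of a whole read, against 8.47% to 10.2% by chance. The step of wild type library 1 lies near 0.1 and rests on higher values. edgeR 4.0.16 and DESeq2 1.42.0 were run on these reads as alternatives only. Other alternatives were TMM scaling, a total without miR-122-5p, pseudocounts of 0.1 and 5, filters on low values, the replicate number as a block and each library left out. The fits were tested on simulated data. Replicate pairs differed beyond sampling noise.

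Named miRNAs were the 3 entries, vessel-list members past the threshold with the 2 most abundant others, the 5 nearest profiles of each arm, and up to 3 arm pairs in each direction. The members and lists were chosen with earlier results of these data known.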

Additional observations from a re-analysis of the deposited data

How the results depend on the processing

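Every setting run kept miR-126a-5p and miR-126a-3p lower and the arm ratio higher in the knockout, but not every call. miR-126a-5p kept its call with both pseudocounts, the filter, TMM, miR-122-5p left out of the total, the replicate block and the count tests, with log2 changes of -0.77 to -0.54. The call of miR-126a-3p was lost with TMM (-0.17), without miR-122-5p in the total (-0.19), in edgeR (-0.18) and DESeq2 (-0.16) on recovered reads, and in the replicate block (-0.39, limma adjusted p = 0.11). With 1 library left out, the log2 change ranged from -0.44 to -0.37 for miR-126a-3p, from -0.87 to -0.71 for miR-126a-5p and from 0.33 to 0.46 for the arm ratio. The arm ratio kept its call in the replicate block (limma adjusted p = 0.042, over 49 pairs). In the fit of levels with that block, over 570 miRNAs, miR-17-5p, miR-322-5p, miR-203a-3p and miR-542-3p lost theirs (limma adjusted p = 0.087, 0.068, 0.057 and 0.12). These fits differ in their spread and number of tests, so their calls cannot be ranked against each other.

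Whether equal replicate numbers pair the samples was not settled. Deviations of same-numbered libraries correlated at 0.03, 0.18 and 0.20, and those of differently numbered libraries at -0.29 to 0.06. With 3 libraries per group, these correlations cannot decide it. The number of miRNAs called was 36, and 22 with the replicate block, 61 in edgeR, 72 in DESeq2, and 5 to 26 with 1 library left out, the lowest without knockout library 3. TMM gave 20 higher and 29 lower calls against 4 and 32. Of the arm pairs, 18 were called, 7 of 16 with both arms of at least 100 RPM, 29 of 94 with at least 1 RPM, and 5 to 18 with 1 library left out, the lowest without wild type library 1. In the vessel list, 5 members fell, 8 with a mean of at least 10 RPM, 3 with the replicate block, 8 in DESeq2 and 2 to 4 with 1 library left out. In that list 1 member rose without miR-122-5p in the total and in DESeq2. That was miR-21-5p, with log2 changes of 0.34 and 0.38. miR-10a-5p changed sign with TMM (0.0079) and DESeq2 (0.0051) without a call. The within-library ratios kept their direction with any single library left out, between 0.39 and 0.63 for mural, -0.51 and -0.45 for leukocyte, -0.22 and -0.08 for red blood cell and -0.81 and -0.63 for hepatocyte markers. The cause of these shifts was not tested. Without wild type library 2, miR-126b had 0 reads and gave no fit, and the filter removed it.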
